A study of Mus musculus with 13 samples.

Results

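Liver zonation was followed through 10 marker genes, 5 of the periportal zone (Cyp2f2, Hal, Sds, Gls2 and Pck1) and 5 of the pericentral zone (Glul, Oat, Rhbg, Slc1a2 and Axin2). A gene was taken from the probe sets annotated to its symbol alone, and where it had several, the brightest on average served. By that rule 8 of the 10 genes were measured. Sds (serine dehydratase) and Gls2 (the liver-type glutaminase) had no probe set of their own in the annotation used here and are not analysed. Rhbg was measured but lay below the filter on dim genes, so 7 members were among the 14953 genes tested, of 19938 genes with a probe set of their own.

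Blood crosses the liver lobule from the portal tract to the central vein, and hepatocytes carry out different metabolism along that path. Periportal hepatocytes favour gluconeogenesis, urea synthesis and amino acid breakdown. Pericentral hepatocytes favour glutamine synthesis and xenobiotic metabolism, and Wnt ligands and R-spondin from cells of the central vein keep beta-catenin active there. Diethylnitrosamine (DEN) is a liver carcinogen that hepatocytes convert to a DNA-damaging form, largely through the pericentral enzyme Cyp2e1.

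The study profiled frozen liver from 13 mice with a floxed or mutant Rb1 gene, which encodes the retinoblastoma protein, a repressor of E2F transcription factors. Mice were 14 days old, and treated mice had received DEN at 20 mg/kg 24 hours earlier. Untreated wild type (2 arrays) means floxed Rb1 without Cre and saline instead of DEN. Wild type after DEN (2 arrays) had floxed Rb1 without Cre. Heterozygous after DEN (2 arrays) had 1 functional allele and 1 floxed allele with Cre, although another label field tags the same mice LOH. N750F after DEN (5 arrays) carried the RB-N750F mutation, and the labels of that group give neither the other allele nor Cre. The group labelled knockout after DEN (2 arrays) had floxed Rb1 with Cre. The loxP sites flank exon 19 of Rb1, and Cre was driven by the albumin promoter, so deletion is directed to hepatocytes. How complete it was, and whether it reached other liver cells, was not measured here. No untreated mice of the other genotypes were analysed here, so a difference between a mutant group and untreated wild type holds both genotype and DEN.

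Levels are log2 of the quantile-normalised intensity plus 16, which understates changes of dim genes, and changes are differences on that scale with their standard error. A change was called at an adjusted p under 0.05 in 1 limma model of all 13 arrays with a term for array batch, and the labels do not say whether replicate mice shared a litter, so a p-value reflects only how far these arrays scatter. Batch 1 held 9 arrays with median intensities of 76.9 to 83, and batch 2 held 4 arrays with medians of 48.2 to 73.3. Batch 2 consisted of N750F arrays 4 and 5, heterozygous array 4 and wild type DEN array 4. Every untreated and knockout-labelled array thus came from batch 1, and the batch term rests on the remaining groups. Levels and shifts without that term set batch 2 arrays against an untreated reference from batch 1 only. By their Y-linked genes both heterozygous, both knockout-labelled, 1 untreated and 1 N750F mouse were male, and the rest were female. Wild type after DEN thus held females only. Sex and genotype cannot be told apart where it is compared with heterozygous or knockout-labelled livers. The Rb1 probe set lay at 7.27 and 7.15 in untreated livers, 8.04 and 8.01 in wild type after DEN, 7.92 and 7.62 in heterozygous livers and 7.82 to 8.43 in N750F livers. Rb1 was at 7.92 and 6.57 in the knockout-labelled livers, and since its position relative to the deleted exon is not known here, it does not check the labels. Hepatocyte markers (7 of 7 measured) summed to intensities of 30457 to 41820 over all arrays. Skeletal muscle markers (6 of 6 measured, 2 above the filter) summed to 7309 in knockout-labelled array 2 and to 324 to 655 in all others.

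The upstream sequences of the 4 members with a called change are shown first, as the stretches where transcription factors of the zonation and RB pathways could bind. Sequences are RefSeq's for GRCm38.p6, cover the 250 bases before the annotated start and run 5′ to 3′ on the gene's strand. The capitals in Slc1a2 mark the letters of a T-cell factor (TCF/LEF) core, the motif through which beta-catenin acts. Glul lies at chr1:153899679-153899928 (plus strand), Oat at chr7:132576399-132576648 (minus strand), Slc1a2 at chr2:102706188-102706437 (plus strand) and Cyp2f2 at chr7:27119705-27119954 (plus strand).
Glul: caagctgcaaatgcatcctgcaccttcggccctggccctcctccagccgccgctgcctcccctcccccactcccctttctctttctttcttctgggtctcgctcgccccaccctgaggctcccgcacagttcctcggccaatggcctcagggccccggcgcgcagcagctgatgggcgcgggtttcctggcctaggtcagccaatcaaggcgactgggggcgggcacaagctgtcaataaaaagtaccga
Oat: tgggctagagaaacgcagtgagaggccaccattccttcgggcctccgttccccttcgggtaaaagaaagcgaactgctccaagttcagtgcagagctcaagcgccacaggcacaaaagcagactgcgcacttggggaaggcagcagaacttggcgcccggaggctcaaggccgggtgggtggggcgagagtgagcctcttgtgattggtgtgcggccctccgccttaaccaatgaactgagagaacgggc
Slc1a2: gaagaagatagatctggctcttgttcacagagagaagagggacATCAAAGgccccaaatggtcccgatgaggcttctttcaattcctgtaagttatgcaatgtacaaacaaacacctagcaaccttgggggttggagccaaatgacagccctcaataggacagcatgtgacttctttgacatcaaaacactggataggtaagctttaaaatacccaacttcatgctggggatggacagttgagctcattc
Cyp2f2: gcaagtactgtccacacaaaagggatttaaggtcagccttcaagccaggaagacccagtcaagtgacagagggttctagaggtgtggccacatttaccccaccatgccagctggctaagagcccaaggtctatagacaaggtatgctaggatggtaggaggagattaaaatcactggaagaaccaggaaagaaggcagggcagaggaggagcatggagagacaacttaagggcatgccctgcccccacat
A promoter was found in the RefSeq table for 7 of the 10 members, all but Rhbg, Sds and Gls2. The TCF/LEF core was searched as CTTTGAA or CTTTGAT on both strands. It was present in Slc1a2, 207 bases before the start on the minus strand of the gene, and in Hal, 199 bases before the start on its plus strand. These letters occurred in 7.48% of 32851 promoter stretches of the same length. Neither the full cAMP response element letters TGACGTCA (1.55% of all stretches) nor any of the E2F letters TTTCCCGC, TTTGGCGC, TTTCGCGC and TTTGCCGC (1.86%) occurred in the 7 members. Variants of these letters were not searched, such as the TTACGTCA in the Pck1 stretch. The Glul and Oat stretches were rich in G and C (64.8% and 60%), and those of Slc1a2 and Cyp2f2 less so (44.8% and 51.6%). A match is only a match of letters, and its absence says only that the letters are not in this window.

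Glul encodes glutamine synthetase, which captures the last ammonia in the hepatocytes around the central vein. Its level was 10.16 and 10.03 in untreated wild type, 9.20 and 9.96 in wild type after DEN, and 8.87 and 8.82 in heterozygous livers. In N750F livers Glul was at 8.83, 8.90, 8.45, 8.68 and 8.39, and in knockout-labelled livers at 8.15 and 8.82. Every treated array was thus below both untreated arrays, and the highest N750F, heterozygous and knockout-labelled value lay below the lowest of wild type after DEN. The means ran from 10.10 ± 0.09 (SD, n = 2) in untreated through 9.58 ± 0.53 (n = 2) in wild type after DEN and 8.85 ± 0.03 (n = 2) in heterozygous to 8.65 ± 0.23 (n = 5) in N750F and 8.48 ± 0.47 (n = 2) in knockout-labelled livers. Values of the last 3 groups overlapped, and no neighbours in this order differed by a called change.

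In N750F livers Glul fell by 1.47 ± 0.27 against untreated wild type, a 2.77-fold decrease (limma, adjusted p = 0.0136). Within batch 1 the difference was -1.37, and it was -1.34 in males and -1.43 in females. The call was lost without untreated array 1 (-1.41, adjusted p = 0.207) or array 2 (-1.54, adjusted p = 0.0535). The difference of heterozygous from untreated livers was -1.28 (adjusted p = 0.0687), and that of knockout-labelled livers was -1.61 (adjusted p = 0.0697), neither of which was called by limma. The latter passed without knockout-labelled array 2 (-1.95, adjusted p = 0.0382), and the former without either knockout-labelled array (-1.28, adjusted p = 0.0444 each time). N750F against wild type after DEN gave -0.93 (adjusted p = 0.11), which passed without wild type array 3 (-1.40, adjusted p = 0.0398).

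A second Glul probe set gave 10.13 and 10.22 in untreated livers, 9.31 and 9.76 in wild type after DEN, and 8.85 and 8.71 in heterozygous livers. It read 7.52, 9.49, 8.40, 8.57 and 8.36 in N750F and 8.45 and 9.17 in knockout-labelled livers. On that probe set 1 N750F array lay within the range of wild type after DEN, but all 5 stayed below the untreated arrays. Its N750F difference from untreated was -1.73 ± 0.41 (limma, adjusted p = 0.0277). In these bulk samples fewer glutamine synthetase-positive cells and less Glul RNA per cell cannot be told apart, and the same holds for every member.

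Oat encodes ornithine aminotransferase, which works beside glutamine synthetase in pericentral cells and turns ornithine towards glutamate. Its level was 9.28 and 9.23 in untreated livers, 8.47 and 9.82 in wild type after DEN, and 9.44 and 9.80 in heterozygous livers. N750F livers read 6.47, 8.06, 7.14, 8.52 and 7.72, and knockout-labelled livers 7.58 and 8.55. All 5 N750F arrays lay below the untreated and heterozygous arrays, whereas the highest of them exceeded wild type array 3 after DEN. The means were 9.62 ± 0.25 in heterozygous, 9.26 ± 0.04 in untreated, 9.14 ± 0.95 in wild type after DEN, 8.06 ± 0.68 in knockout-labelled (n = 2 each) and 7.58 ± 0.80 in N750F livers (n = 5). The range of wild type after DEN overlapped all other groups, and knockout-labelled and N750F livers overlapped each other. With the batch term heterozygous livers differed from untreated ones by only -0.08 (limma, adjusted p = 0.969).

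Oat fell by 2.03 ± 0.40 in N750F against untreated livers, which is 4.07-fold (limma, adjusted p = 0.0175). It was -2.03 within batch 1, -2.82 in males and -1.37 in females. The call was lost without untreated array 1 (adjusted p = 0.223), untreated array 2 (adjusted p = 0.0696) or N750F array 3 (adjusted p = 0.0533), and without the batch term (-1.67, adjusted p = 0.128). Against heterozygous livers, Oat fell by 1.95 ± 0.39, or 3.87-fold (limma, adjusted p = 0.0194). That difference was -2.22 within batch 1, -1.68 within batch 2 and -3.15 between males, of which N750F has 1. The call ended without heterozygous array 3 (-1.60, adjusted p = 0.204), array 4 (-2.27, adjusted p = 0.146) or N750F array 5 (-1.81, adjusted p = 0.0543). Adjusted for the Y-linked genes, the difference was -2.52 (adjusted p = 0.0529). The difference of N750F from wild type after DEN was -1.47 (adjusted p = 0.0828), and that of knockout-labelled from untreated livers was -1.19 (adjusted p = 0.42), neither called.

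Slc1a2 encodes the glutamate transporter GLT-1, which takes up glutamate into pericentral hepatocytes. Untreated livers read 7.87 and 9.13, wild type after DEN 9.72 and 8.19, and heterozygous livers 8.15 and 7.43. N750F livers were at 6.03, 7.45, 6.07, 7.70 and 5.87, and knockout-labelled livers at 6.47 and 6.97. Every N750F and knockout-labelled array lay below the untreated and wild type DEN arrays, and N750F overlapped only heterozygous and knockout-labelled livers. Wild type after DEN was highest (8.95 ± 1.08), followed by untreated (8.50 ± 0.89), heterozygous (7.79 ± 0.51), knockout-labelled (6.72 ± 0.36, n = 2 each) and N750F livers (6.63 ± 0.88, n = 5). Untreated livers overlapped wild type after DEN, and heterozygous livers overlapped untreated ones.

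Slc1a2 fell by 2.36 ± 0.54 in N750F against wild type after DEN, or 5.14-fold (limma, adjusted p = 0.0481). This call was held in 4 of 21 alternatives, and each of 12 single arrays ended it when left out. Without wild type array 3 the difference was -1.57 (adjusted p = 0.261), and without wild type array 4 it was -3.08 (adjusted p = 0.257). It was -3.20 within batch 1, -1.40 within batch 2 and -2.18 in females. Against untreated livers the N750F difference of -1.73 was not called (adjusted p = 0.0864), but it passed without N750F array 4 (-1.91, adjusted p = 0.03) and with the Y-linked covariate (-1.95, adjusted p = 0.0494). Knockout-labelled livers differed by -2.41 from wild type after DEN (adjusted p = 0.3) and by -1.78 from untreated livers (adjusted p = 0.394), both short of a call.

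Axin2 is a scaffold of the beta-catenin destruction complex and a widely used target of Wnt signalling. It read 6.66 and 6.38 in untreated, 6.64 and 5.80 in wild type after DEN, 7.11 and 6.88 in heterozygous, and 6.30 and 6.60 in knockout-labelled livers. N750F livers had 6.18, 6.48, 6.42, 6.02 and 6.35. Both heterozygous arrays were above all others, and the other 4 groups overlapped. No Axin2 change was called: heterozygous livers were higher than untreated by 0.64 (adjusted p = 0.282), and N750F differed from heterozygous livers by -0.74 (adjusted p = 0.16). The 95% interval of the N750F difference from untreated livers ran from -0.60 to 0.40, while that of Glul ran from -2.05 to -0.89.

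Rhbg encodes an ammonium transporter of pericentral hepatocytes. Its level was 4.95 to 5.78 over the 13 arrays, below the filter at 5.94, and it was not tested. The group means of Rhbg were 5.22 in N750F, 5.29 in wild type after DEN, 5.33 in untreated, 5.46 in heterozygous and 5.53 in knockout-labelled livers. Heterozygous array 3 was the highest and N750F array 5 the lowest.

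**Figure D1:**
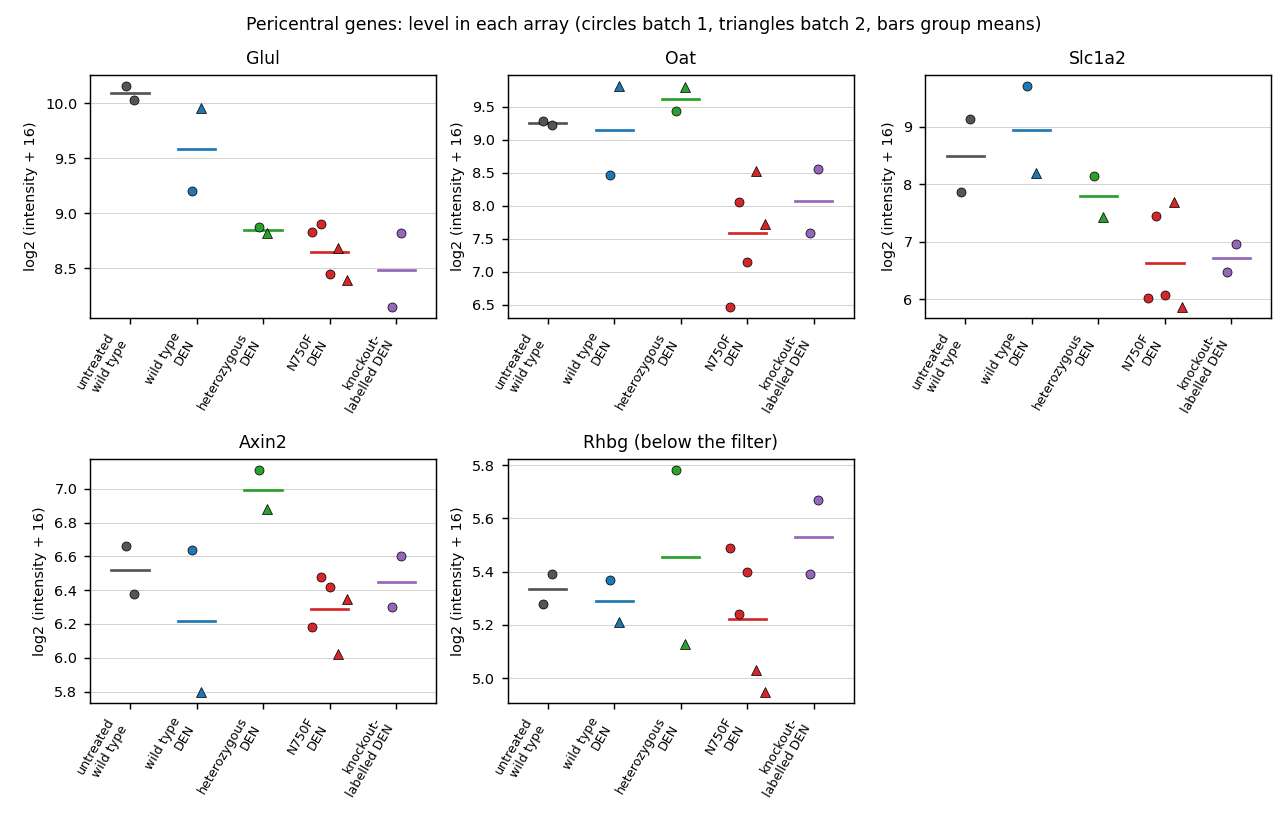
Level of the 5 pericentral genes in each array, as log2 of the intensity plus 16, by group; circles are batch 1, triangles batch 2 and bars group means. Glul lies at 10.03 or above in the untreated arrays and at 8.90 or below in all N750F arrays, while Axin2 overlaps between these groups and Rhbg lies below the filter.

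Cyp2f2 encodes a cytochrome P450 of periportal hepatocytes. Its level was 8.69 and 9.27 in untreated livers, 9.69 and 9.99 in wild type after DEN, and 8.66 and 8.21 in heterozygous livers. It was 8.74, 8.59, 8.75, 8.40 and 8.43 in N750F and 8.85 and 8.96 in knockout-labelled livers. Both arrays of wild type after DEN were above every other array, and heterozygous and N750F arrays overlapped. The order of means was wild type after DEN (9.84 ± 0.21), untreated (8.98 ± 0.41), knockout-labelled (8.91 ± 0.08), N750F (8.58 ± 0.17, n = 5) and heterozygous (8.44 ± 0.32, n = 2 in the other groups). Knockout-labelled values lay within the untreated range and above all N750F values.

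Cyp2f2 fell by 1.27 ± 0.22 in N750F against wild type after DEN, which is 2.42-fold (limma, adjusted p = 0.012). It was -0.99 within batch 1, -1.57 within batch 2 and -1.29 in females. The call was lost in batch 1 alone (adjusted p = 0.533) and without wild type array 4 (-0.97, adjusted p = 0.402). Heterozygous livers differed from wild type after DEN by -1.40, a difference not called (adjusted p = 0.56), which passed without wild type array 3 (-1.71, adjusted p = 0.0366). Knockout-labelled livers differed by -1.02 (adjusted p = 0.272). The DEN-treated wild type was 0.95 above untreated livers, without a call (adjusted p = 0.142).

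Hal encodes histidine ammonia-lyase, which starts histidine breakdown. Its level was 9.98 and 9.66 in untreated livers, 9.26 and 7.28 in wild type after DEN, and 10.21 and 9.74 in heterozygous livers. It was 9.38, 9.52, 9.07, 9.69 and 8.88 in N750F and 9.08 and 9.81 in knockout-labelled livers. Wild type array 4 after DEN stood far below all others, and that group spread widest (8.27 ± 1.40, n = 2). The other means were 9.97 ± 0.34 in heterozygous, 9.82 ± 0.22 in untreated, 9.44 ± 0.52 in knockout-labelled (n = 2 each) and 9.31 ± 0.33 in N750F livers (n = 5), each overlapping the next. No Hal change was called, with differences of -1.26 for wild type after DEN against untreated (adjusted p = 0.24), 1.71 for heterozygous against wild type after DEN (adjusted p = 0.665) and 0.98 for N750F against wild type after DEN (adjusted p = 0.243). Without wild type array 3, which leaves array 4 alone, these were -2.37 (adjusted p = 0.0406), 2.61 (adjusted p = 0.0222) and 1.93 (adjusted p = 0.0223).

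Pck1 encodes the cytosolic phosphoenolpyruvate carboxykinase, which controls entry into gluconeogenesis. Its level was 9.35 and 9.31 in untreated livers, 8.55 and 8.25 in wild type after DEN, and 8.41 and 8.37 in heterozygous livers. N750F livers had 8.78, 8.98, 7.92, 8.23 and 8.66, while knockout-labelled livers had 8.71 and 9.62. Among the 11 treated arrays, 10 were below both untreated arrays, and knockout-labelled array 2, which also had the high muscle markers, was above them. Fat cell markers (5 of 5 measured) and kidney tubule markers (5 of 5 measured), from tissues that also express Pck1, summed to 494 and 353 in that array. Over all other arrays the fat sum was 367 to 549 and the kidney sum 267 to 502. The part of these tissues in the Pck1 value was not tested.

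Group means of Pck1 were 9.33 ± 0.02 in untreated, 9.16 ± 0.65 in knockout-labelled, 8.51 ± 0.43 in N750F (n = 5), 8.40 ± 0.21 in wild type after DEN and 8.39 ± 0.03 in heterozygous livers (n = 2 in the other groups). No Pck1 change was called. The differences from untreated livers were -0.86 in wild type after DEN (adjusted p = 0.331), -0.87 in heterozygous (adjusted p = 0.282) and -0.76 in N750F livers (adjusted p = 0.167).

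**Figure D2:**
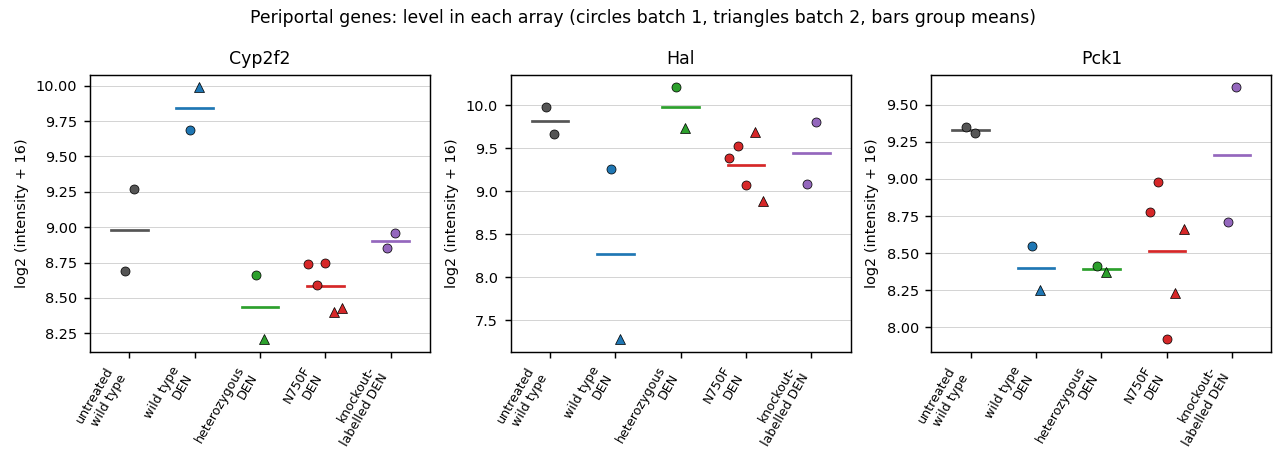
Level of the 3 measured periportal genes in each array, as log2 of the intensity plus 16, by group; circles are batch 1, triangles batch 2 and bars group means. Cyp2f2 is highest in wild type after DEN (9.69 and 9.99), Hal is lowest in 1 array of that group (7.28), and Pck1 is highest in 1 knockout-labelled array (9.62).

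Read by comparison, called changes of the members appeared only where N750F livers were compared with untreated, wild type DEN or heterozygous livers. N750F had 5 arrays and each other group 2, so these differences had smaller standard errors than those among the other groups. Some uncalled differences of other groups were as large as called ones. In knockout-labelled livers Glul was at -1.61 against untreated and Slc1a2 at -2.41 against wild type after DEN, while Oat was at only -1.19 against untreated. Cyp2f2 in heterozygous livers was at -1.40 against wild type after DEN. Differences of heterozygous and knockout-labelled livers from wild type after DEN also set males against females. Against untreated livers 2 of 7 members were called in N750F, both pericentral and lower, where 6.21% of all genes tested were called. Against wild type after DEN 2 of 7 were called (Slc1a2 and Cyp2f2, both lower, 1 from each zone), beside 1.42% of all genes. Against heterozygous livers 1 of 7 was called (Oat), beside 1.64%. The members were chosen with earlier results of these data known, so these counts describe them and do not show that zonation genes differ from other genes.

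In the other comparisons limma called 0 of 7 members. For wild type after DEN against untreated livers 0.689% of all genes were called. An unadjusted limma p under 0.05 was reached by 13.7% of all genes and by 3 of the 7 members. Heterozygous against untreated livers had 1.4% of genes called and 15.6% under that unadjusted threshold, with 3 such members. For knockout-labelled against untreated livers these values were 0.0869%, 9.48% and 3 members. Knockout-labelled livers against wild type after DEN had 0.0468%, 8.55% and 3 members, and against heterozygous livers 0.301%, 9.62% and 2 members. Heterozygous livers against wild type after DEN had 0.00669%, 6.88% and 4 members.

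Between N750F and knockout-labelled livers 0% of genes were called by limma, although 1823 genes had an unadjusted p under 0.05, and 0 of the 7 members did. The 95% interval of that difference was -0.44 to 0.72 for Glul, -1.70 to 0.03 for Oat and -1.16 to 1.27 for Slc1a2. A missing call does not show that both groups are alike. The comparisons with untreated livers share the same 2 arrays, and those with wild type after DEN share 2 others, so counts from different comparisons are not independent.

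**Figure D3:**
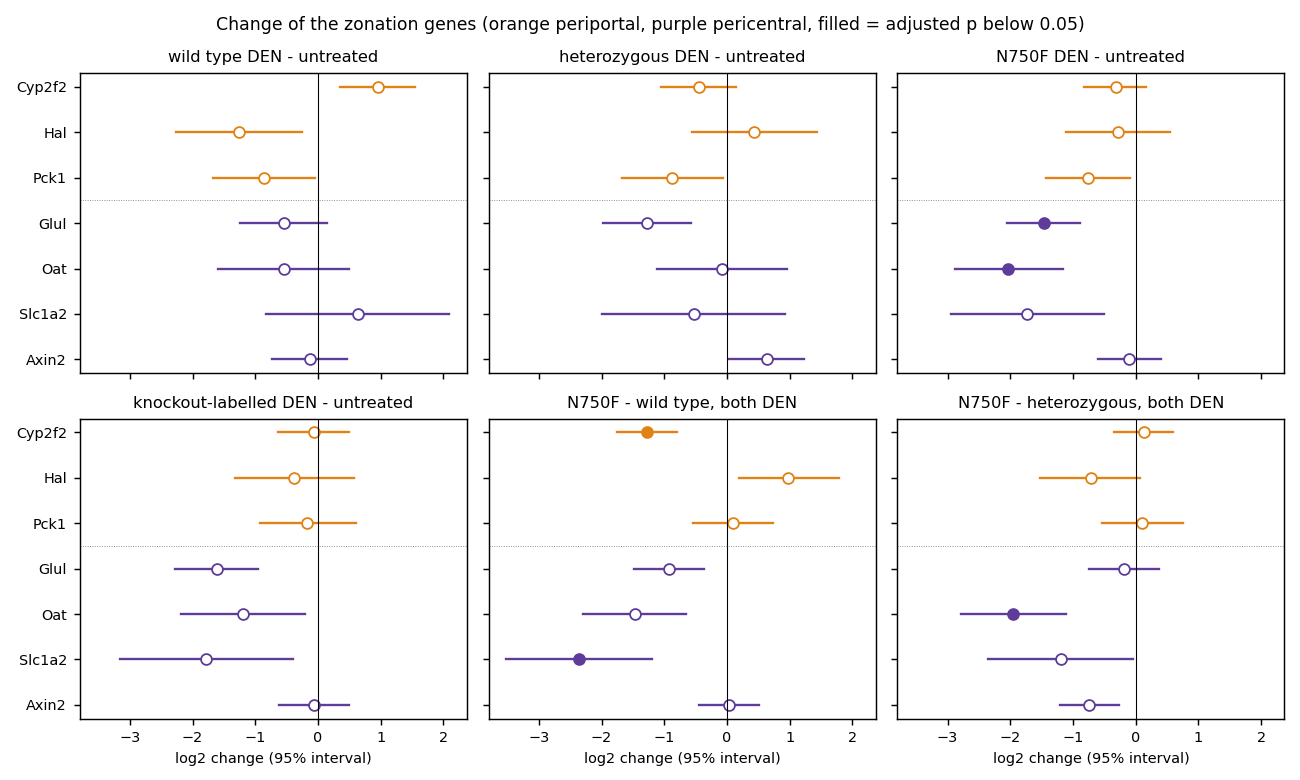
Change of the 7 tested members in 6 of the 10 comparisons on the log2 scale, with 95% intervals; orange is periportal, purple is pericentral and filled points have an adjusted p under 0.05. The filled points are Glul (-1.47) and Oat (-2.03) for N750F against untreated, Cyp2f2 (-1.27) and Slc1a2 (-2.36) for N750F against wild type after DEN, and Oat (-1.95) for N750F against heterozygous livers.

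The mean shift of each zone from the untreated mean was taken per array as a description, without adjustment for batch. The untreated mean came from batch 1 only. For the 4 pericentral genes tested it was -1.72, -0.87, -1.58, -0.86 and -1.51 in N750F livers and -1.47 and -0.86 in knockout-labelled livers. It was -0.09 and -0.15 in wild type after DEN and -0.20 and -0.36 in heterozygous livers. All 7 N750F and knockout-labelled arrays therefore lay below all other treated arrays on the pericentral mean. Axin2 read 6.02 to 6.60 in these arrays, partly below its untreated levels of 6.66 and 6.38. In heterozygous livers Glul lay within the N750F range, while Oat and Axin2 were above both untreated arrays. With the batch term the heterozygous difference from untreated livers was -0.08 for Oat and 0.64 for Axin2, neither called. The small means of wild type after DEN also joined opposite shifts. Its array 3 had Glul (9.20) and Oat (8.47) below their untreated means of 10.10 and 9.26, and Slc1a2 (9.72) above its mean of 8.50. In its array 4, Oat (9.82) was above and Axin2 (5.80) below their untreated means of 9.26 and 6.52.

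For the 3 periportal genes the shift was -0.21 and -0.87 in wild type after DEN, -0.28 and -0.60 in heterozygous livers, and -0.41, -0.35, -0.80, -0.60 and -0.72 in N750F livers. Knockout-labelled livers were at -0.50 and 0.09. All treated groups overlapped on this mean, whereas on the pericentral one N750F and knockout-labelled arrays lay apart from the other treated arrays. The periportal mean also averages unlike genes: the group of wild type after DEN had the highest mean of Cyp2f2 and the lowest of Hal.

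**Figure D4:**
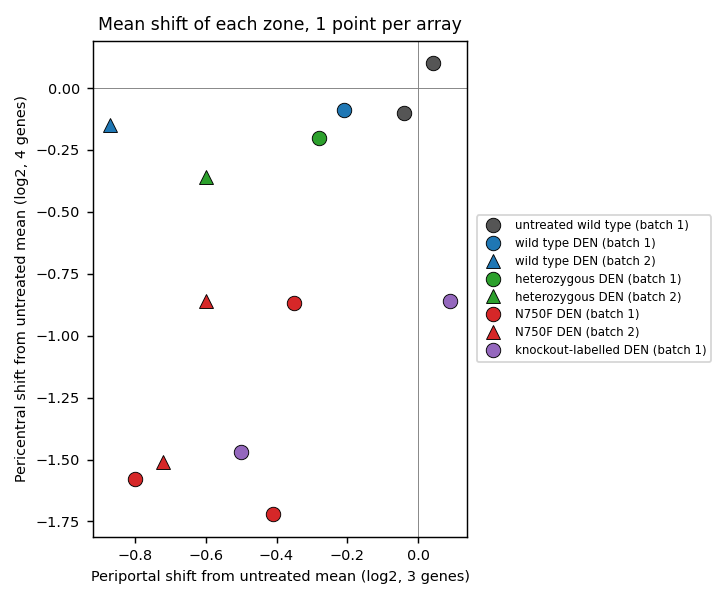
Mean log2 shift from the untreated mean of the 3 periportal genes (x axis) and the 4 pericentral genes tested (y axis), 1 point per array, coloured by group, with triangles for batch 2. N750F and knockout-labelled arrays lie at -0.86 or below on the pericentral axis and all other arrays at -0.36 or above, while the treated groups overlap on the periportal axis.

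Wider lists of genes of the same pathways were read beside the members. Over all genes tested, 6.21% were called in N750F against untreated livers, 1.42% against wild type after DEN and 1.64% against heterozygous livers. Beside these shares, counts of 1 or 2 called genes in a list are too few to set the list apart from other genes. The Wnt ligand, receptor and core pathway list had 14 of its 15 genes tested, and 2 rose in N750F against untreated livers, with a list median of 0.13 beside -0.06 over all genes. Rspo3, the R-spondin made at the central vein that strengthens Wnt signals, read 7.18 and 7.25 in untreated livers and 8.12, 8.29, 8.49, 8.22 and 8.27 in N750F livers. All treated arrays were above both untreated arrays, with 8.28 and 7.49 in wild type after DEN, 8.29 and 7.92 in heterozygous and 8.13 and 7.53 in knockout-labelled livers. Rspo3 rose by 1.18 ± 0.24 in N750F (limma, adjusted p = 0.0183), a call held in 15 of 21 alternatives.

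Fzd4, a Wnt receptor, rose by 0.82 ± 0.22 in N750F (limma, adjusted p = 0.045) and by 1.37 ± 0.27 in wild type after DEN (adjusted p = 0.0364) against untreated livers, calls held in 4 and 6 of 21 alternatives. Fzd4 read 8.04 and 7.80 in untreated livers, 9.27 and 8.51 in wild type after DEN, and 8.70, 8.62, 8.78, 7.78 and 8.22 in N750F livers. The N750F arrays thus overlapped the untreated ones. Endothelial markers (6 of 6 measured), from a cell type that makes Wnt ligands and R-spondin in liver, summed to 2848 to 3130 in untreated livers and 1897 to 2993 in N750F livers. They summed to 2011 to 2326 in wild type after DEN, 1704 to 2039 in heterozygous and 2393 to 2523 in knockout-labelled livers. Single markers went different ways. Lyve1 read 8.76 and 9.12 in untreated and 9.25 to 9.64 in N750F livers. Cdh5 (9.16 and 8.68 against 7.50 to 8.29) and Stab2 (10.38 and 10.56 against 9.19 to 10.34) were lower in N750F. Pecam1, Kdr and Clec4g overlapped. Stellate cell markers (6 of 6 measured) summed to 5323 to 6247 in untreated and 4683 to 7204 in N750F livers. The part of these cells in Rspo3 and Fzd4 was not tested.

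Among Wnt targets and feedback genes, 9 of 11 were tested and 1 fell in N750F against untreated livers (list median -0.21). Notum, a secreted enzyme that inactivates Wnt ligands and a target of the pathway, read 7.28 and 7.30 in untreated livers and 5.27, 6.49, 5.78, 6.23 and 6.10 in N750F livers. Wild type after DEN had 6.95 and 6.52, heterozygous livers 6.22 and 5.91, and knockout-labelled livers 6.36 and 6.38, all below the untreated arrays. Notum fell by 1.32 ± 0.30 in N750F (limma, adjusted p = 0.0261), held in 15 of 21 alternatives.

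The wider pericentral list had 12 of 16 genes tested, with a median of -0.49 in N750F against untreated livers and 1 called. Nr1i3, the nuclear receptor CAR that induces drug-metabolising enzymes, read 9.69 and 8.92 in untreated, 8.99 and 9.49 in wild type after DEN, and 9.43 and 9.63 in heterozygous livers. It was 7.67, 7.87, 8.17, 7.57 and 8.70 in N750F and 8.32 and 9.25 in knockout-labelled livers, so N750F lay below the 3 other groups named first. Nr1i3 fell by 1.42 ± 0.34 against untreated (limma, adjusted p = 0.0307) and by 1.51 ± 0.33 against heterozygous livers (adjusted p = 0.0338), held in 12 and 11 of 21 alternatives. Slc13a3, a dicarboxylate transporter of the same list, went the other way against heterozygous livers, where it rose by 1.15 ± 0.27 (limma, adjusted p = 0.0441), held in 5 of 21. Its N750F levels of 8.38 to 9.34 overlapped the untreated levels of 9.41 and 9.29, and heterozygous livers were at 7.84 and 7.95.

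For glutamine, ammonia and ornithine handling all 13 genes were tested, with a median of -0.14 and 1 called in N750F against untreated livers. Slc38a3, a glutamine transporter of the plasma membrane, read 10.02 and 9.55 in untreated livers and 8.32, 8.99, 8.61, 8.67 and 8.36 in N750F livers. Wild type after DEN (9.48 and 9.75), heterozygous livers (9.71 and 9.83) and knockout-labelled array 2 (9.53) stayed above all N750F arrays, and knockout-labelled array 1 (8.44) did not. Slc38a3 fell by 1.20 ± 0.30 (limma, adjusted p = 0.0355), held in 7 of 21 alternatives.

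**Figure D5:**
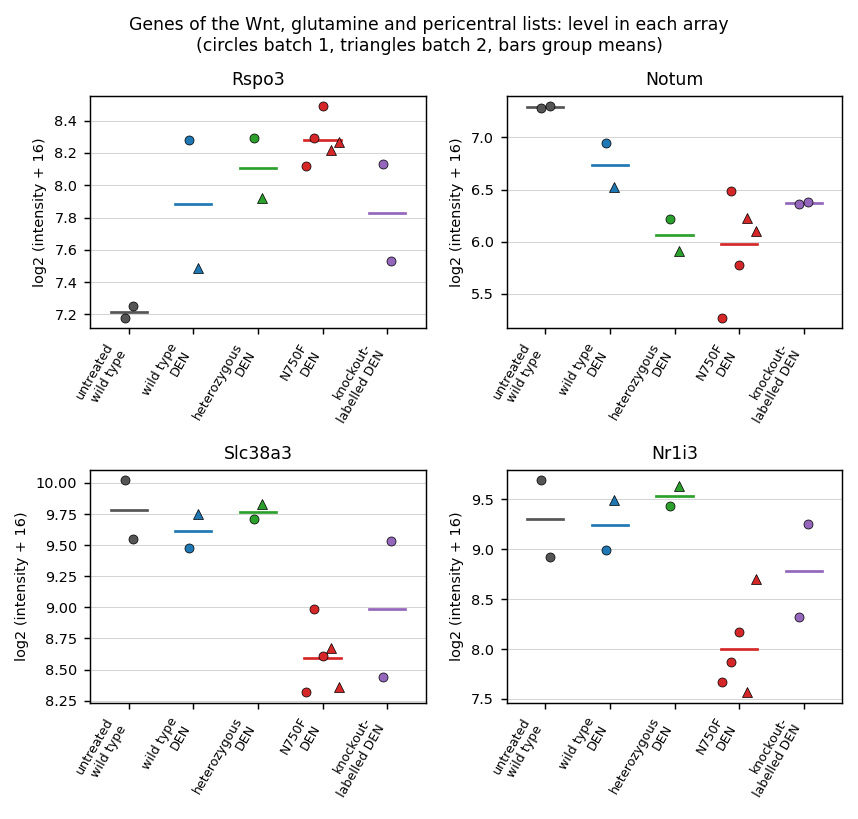
Level of Rspo3, Notum, Slc38a3 and Nr1i3 in each array, as log2 of the intensity plus 16, by group; circles are batch 1, triangles batch 2 and bars group means. Rspo3 is above and Notum below the untreated arrays in all treated arrays, while Slc38a3 and Nr1i3 are lowest in N750F livers.

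The wider periportal list had 14 of 17 genes tested, and limma called 0 in N750F against untreated livers (median 0.06). Against wild type after DEN, Ctsc, the lysosomal protease cathepsin C, rose by 1.35 ± 0.29 (limma, adjusted p = 0.0375), and Pigr, the receptor that carries IgA across epithelia, fell by 1.76 ± 0.37 (adjusted p = 0.0317), held in 10 and 12 of 21 alternatives. Pigr also fell by 2.28 ± 0.37 against heterozygous livers (limma, adjusted p = 0.0053), held in 18 of 21. Pigr read 5.11, 5.84, 5.62, 6.33 and 5.74 in N750F livers, 7.85 and 7.11 in wild type after DEN, and 8.49 and 7.50 in heterozygous livers. At 6.37 and 5.91 the untreated livers overlapped the N750F livers. Ctsc also overlapped between N750F (8.61 to 9.29) and untreated livers (9.05 and 8.32), and was at 7.91 and 7.39 in wild type after DEN. Kupffer cell markers (6 of 6 measured) summed to 729 to 979 in wild type after DEN, 1100 to 1288 in heterozygous, 1380 to 2747 in N750F, 1589 to 1995 in knockout-labelled and 1941 to 2529 in untreated livers, and their part in the Ctsc value was not tested.

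In the list of histidine, serine and gluconeogenic enzymes and their regulators 12 of 14 genes were tested. Creb3l3, a liver transcription factor that induces gluconeogenic and fasting genes, fell against untreated livers by 1.55 ± 0.29 in heterozygous (limma, adjusted p = 0.0236) and by 0.99 ± 0.24 in N750F livers (adjusted p = 0.0328), held in 15 and 12 of 21 alternatives. Its untreated levels of 10.18 and 9.71 were above those of all treated arrays, which ran from 7.98 to 9.42. Psat1, a serine synthesis enzyme, rose in N750F by 1.14 ± 0.24 against wild type after DEN (limma, adjusted p = 0.0365) and also against heterozygous livers (adjusted p = 0.0369), held in 7 and 9 of 21. Psat1 was at 6.77 to 7.71 in N750F and at 6.30 or below in those 2 groups. Untreated (6.70 and 6.84) and knockout-labelled livers (6.41 and 7.30) overlapped N750F livers.

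The genes most like Glul and Cyp2f2 over the 13 arrays were found by Pearson correlation among the 14953 genes tested. Members, predicted loci and small RNA genes, known by their symbols, were left out of that search. The batch effect, fitted beside the groups, was removed first. For Glul they were Pemt (r = 0.93, Spearman 0.80), which makes phosphatidylcholine, then Capn12, a calpain (r = 0.92, Spearman 0.87), Ephx2, the soluble epoxide hydrolase (r = 0.91, Spearman 0.89), and C1qtnf2 (r = 0.91, Spearman 0.82). Among the members, Oat (r = 0.68) and Slc1a2 (r = 0.65) were most like Glul, followed by the periportal Cyp2f2 (r = 0.53) and Pck1 (r = 0.39). Hal (r = -0.16) and the pericentral Axin2 (r = -0.12) were not alike. Cyp2f2 was most like Ucp3 (r = 0.95), Olfr679 (r = 0.91), Adamts14 (r = 0.90) and Btbd19 (r = 0.89). Ucp3 had a Spearman value of only 0.53. The members most like Cyp2f2 were the pericentral Slc1a2 (r = 0.55) and Glul (r = 0.53), then Oat (r = 0.29). Pck1 was at r = -0.04 and Axin2 at r = -0.44, and Hal ran opposite to Cyp2f2 (r = -0.76). The members thus did not group by zone on these values. These values describe 13 arrays that share groups and batches.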

How the data were processed

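Liver RNA was labelled after WT-Ovation Pico amplification and read on 1-colour arrays, per the labels' protocols. For each of 13 arrays the authors deposited a linear intensity per probe set (35556 in all). RMA and Affymetrix Expression Console 1.1 appear in the submitters' processing notes, without roles. No source used here gives a genome build or where probes lie.

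Intensities were quantile-normalised, 16 was added and log2 taken. Of the probe sets, 21789 had 1 gene symbol, and 21698 of these were updated through Entrez IDs. Genes under the 25th percentile of the mean (log2 5.94) were left out. Group and batch were fitted with limma 3.58.1 in R 4.3.3 (7 residual degrees of freedom), with Benjamini-Hochberg adjustment over 14953 genes in each of 10 comparisons. Batch is the run named in the raw array names. The number of arrays limits the precision. Of 78 array pairs 0 were identical (r 0.87 to 0.981). Steps were tested on simulated data.

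The members and lists were chosen with earlier results of these data known. All members were named, and from the wider lists each called gene, except where only a count is given. Alternatives were the offset (1 or 50), median scaling, no filter, no batch term, batch 1 only, the replicate number as a block, a Y-linked covariate, each array left out, and the other Glul probe set.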

Additional observations from a re-analysis of the deposited data

How the results depend on the processing

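Over the alternatives run, the 5 called member changes kept their direction in all 106 values and the call in 71, and the 25 uncalled changes with an unadjusted p under 0.05 kept direction in all 530 values, with 13 passing the threshold. Of the other 40 changes, 23 changed sign in at least 1 alternative (60 of 844 values). Deviations of same-numbered arrays of different groups correlated at r from -0.13 to 0.45 (12 pairs), and at -0.41 to 0.05 after batch removal. Array 3 of a group was in batch 1 and array 4 in batch 2, so batch removal would also remove a pairing. These values cannot tell whether the numbers pair the mice. With the replicate block 0 members were called in N750F against untreated, wild type DEN and heterozygous livers. Those 3 counts were 1, 1 and 0 without the batch term. In batch 1 only the counts against wild type after DEN and heterozygous livers were 0 and 0, with the Y-linked covariate 1 and 0, and an offset of 1 gave 1 against wild type after DEN. An offset of 50 gave 1 for heterozygous and 1 for knockout-labelled livers against untreated. Leaving out each array in turn gave 0 to 1 members for wild type, heterozygous and knockout-labelled against untreated livers, 0 to 3 for N750F against untreated (3 without N750F array 4), 0 to 3 against wild type after DEN (3 without its array 3), 0 to 1 against heterozygous livers, and 0 to 2 for heterozygous against wild type after DEN. A group left with 1 array is assumed in the pooled fit to vary like the others. The causes were not tested. Over all genes, N750F calls ranged from 13 to 1355 against untreated (928 as reported), 0 to 494 against wild type after DEN (212) and 1 to 314 against heterozygous livers (245). Other ranges were 0 to 226 for wild type after DEN (103), 2 to 407 for heterozygous (210) and 0 to 46 for knockout-labelled against untreated (13). Between treated groups they were 0 to 92 for knockout-labelled against wild type (7), 0 to 135 against heterozygous (45), 0 to 131 for heterozygous against wild type (1) and 0 to 511 for N750F against knockout-labelled livers (0). The 15 called changes of the wider lists kept direction in all 315 values and the call in 158. Groups of 2, unevenly split by sex and batch, limit the precision. Between wild type after DEN and heterozygous or knockout-labelled livers, sex and genotype cannot be told apart.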
